A study of Mus musculus with 12 samples.

Results

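The clustered protocadherin genes are a family of cadherin-like cell surface proteins encoded in 3 neighbouring gene clusters, alpha, beta and gamma, on mouse chromosome 18. They were taken as all gene symbols that begin with Pcdha, Pcdhb or Pcdhg followed by a digit, a, b or c, with a mean raw count of at least 10 over the 12 libraries. Of 55471 gene IDs in the count table, 58 carried such a symbol and 56 passed the minimum. The 56 genes comprised 13 of the alpha cluster, 21 of the beta cluster and 22 of the gamma cluster. Of these, 5 were C-type genes, Pcdhac1 and Pcdhac2 at the end of the alpha cluster and Pcdhgc3, Pcdhgc4 and Pcdhgc5 at the end of the gamma cluster. The other 51 were 11 alternate alpha genes, the 21 beta genes, 12 gamma genes of the A type and 7 of the B type. The gene just inside the minimum was Pcdha8, with a mean of 12.7 counts, and the one just outside was Pcdhb1, with a mean of 5.0 counts and 0 to 10 counts per library. Pcdha4 had 2 counts in all 12 libraries together.

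Each alternate gene has its own promoter and its own large first exon, which encodes the whole extracellular part of the protein. In the alpha and gamma clusters this exon is spliced to a short set of constant exons that encode a shared intracellular end, whereas beta proteins have no such constant end. A neuron uses only a few alternate promoters, chosen largely at random, and their looping to distant enhancers depends on the DNA-binding protein CTCF and on cohesin. The C-type genes are not subject to the same random choice. The proteins bind like to like between cell membranes and let the branches of 1 neuron recognise and avoid each other.

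Ventral CA1, the ventral part of the hippocampal output field, was profiled in acute slices of 400 µm. The mice were male, wild-type C57BL/6J and 5 to 7 weeks old. Strong tetanization (STET), a protocol for late long-term potentiation, consisted of 3 trains at 100 Hz with 100 pulses each, and STET slices received it alone. STET_S100 slices received STET together with stimulation of the basolateral amygdala at 100 Hz, and STET_S200 slices received STET together with amygdala stimulation given as 200 Hz, although the same label also states pulses at 100 Hz. Control slices had the electrodes in place and received basal stimulation only. Slices were frozen 30 min after stimulation, an area of 1 mm2 was cut out of each, and 6 slices were pooled for each library. There were 3 libraries per group. Since each mouse gave 4 slices, 1 for each group, mice are common to the groups. Whether libraries with the same number hold the same mice is not stated. The labels do not say that the libraries of a group came from separate experiments, so p-values measure the spread between these pools. The question was which transcripts follow late potentiation, and what amygdala input at each rate adds to it.

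The libraries held 36.3 to 52.8 M counts, and the 56 genes took 0.0588 to 0.0619% of them. All 7 genes looked up as markers of CA1 pyramidal neurons, among them Camk2a and Slc17a7, were detected in every library. Their summed level was 5532 to 5794 CPM (counts scaled to library size) in STET, 5628 to 5655 in STET_S100, 5681 to 5756 in STET_S200 and 5383 to 6134 CPM in Control. Camk2a, at 3299 to 3980 CPM, and Slc17a7, at 1196 to 1354 CPM, made most of this sum. It therefore mainly follows those genes and is not a measure of CA1 content. Fibcd1, another gene of the list, ran from 290 to 437 CPM. Transcripts of other tissues varied between libraries. Fabp4, a fatty acid carrier of fat and endothelial cells, was above 1 CPM in 5 libraries, STET 3, STET_S100 1, STET_S200 2, STET_S200 3 and Control 3. The 7 markers of the choroid plexus summed to 279 to 2425 CPM in STET, 20.1 to 3042 in STET_S100, 6.86 to 51.4 in STET_S200 and 208 to 1287 CPM in Control. In pooled tissue of this kind, fewer cells of a type and less RNA per cell cannot be told apart.

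Because the constant exons belong to every gene of their cluster, a read that lies wholly in them has no single gene of origin. In the GENCODE M21 annotation, which may differ from the one the authors used, 2860 exon bases were common to all 14 alpha genes and 2116 to all 22 gamma genes. The share of a gene's exon bases that no other gene on the same strand covers was 40.1 to 61.1% for the 11 alternate alpha genes, with a median of 46.4%. It was 33.2 to 68.2% for the gamma A genes, 45.4 to 68.5% for the gamma B genes and 47.2 to 62.1% for the C-type genes. In the beta cluster it was 90.3 to 100%, and 19 of 21 genes shared no base.

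Genes without a base of their own had no counts. All 4 annotated genes on the same strand whose exon bases are shared throughout, Gm42416, Gm37013, Gm37388 and Gm38182, had 0 counts in all 12 libraries. Pcdha4 overlaps Gm42416 and keeps 494 unshared bases. It had 1 count in each of 2 libraries and 0 in the others, so its expression cannot be read from its count. Genes on the opposite strand did not have this effect. Pcdhga10 is covered in full when both strands are considered and still had a mean of 375 counts, while the antisense gene Gm26672, which overlaps it, had a mean of 155 counts. BC037039, antisense to Pcdhgc3, had a mean of 232 counts. Levels between genes are therefore compared below as CPM per kilobase (kb) of exon not shared on the same strand, which assumes that reads of shared exons were left out.

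**Figure D1:**
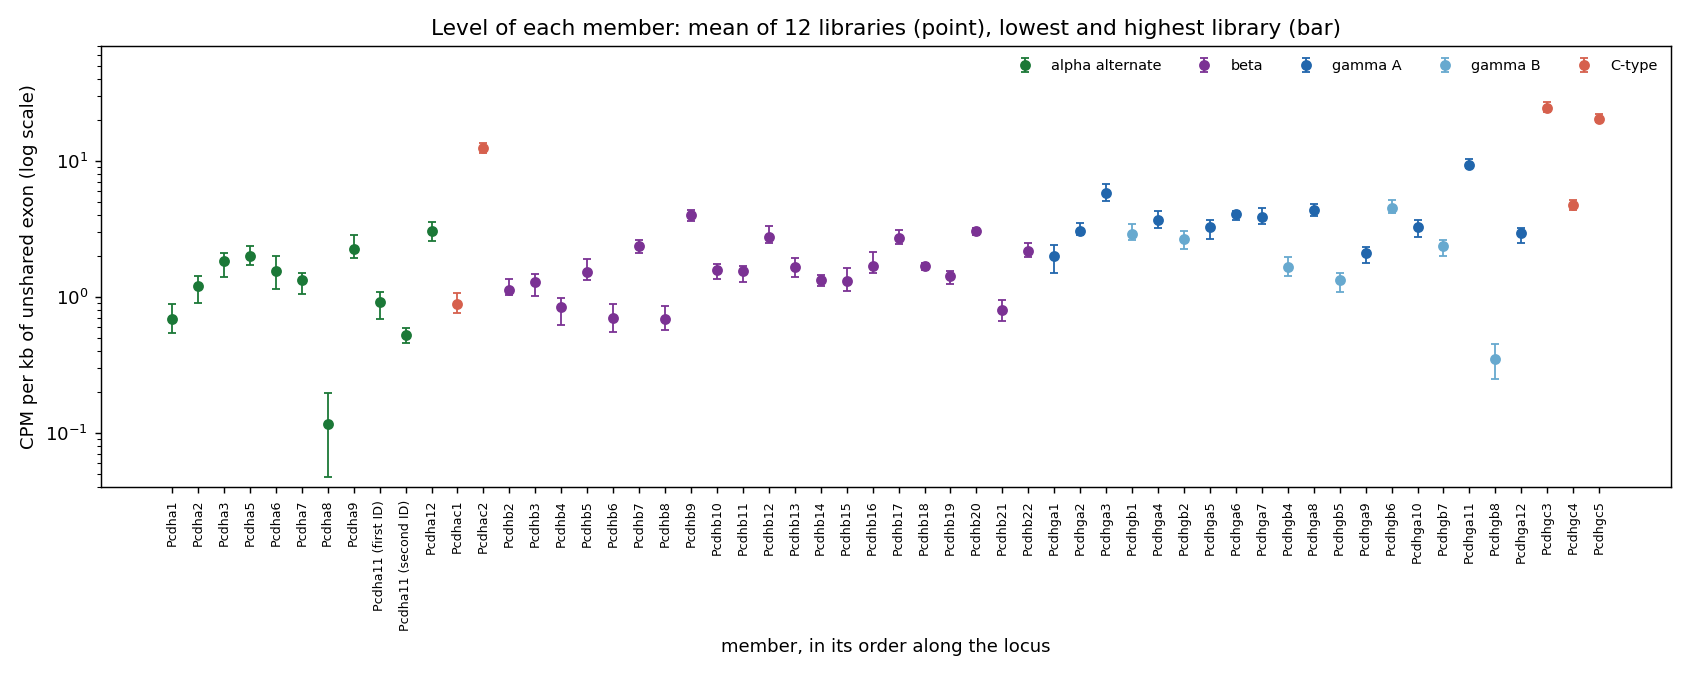
Level of each of the 56 genes in CPM per kb of unshared exon on a log scale, in their order along the locus. Points are means of 12 libraries and bars run from the lowest to the highest library. Pcdhgc3, Pcdhgc5 and Pcdhac2 lie above all others at 24.5, 20.4 and 12.4 CPM per kb, and Pcdha8 is lowest at 0.117. The first and second ID of Pcdha11 are ENSMUSG00000007440 and ENSMUSG00000102206.

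On this scale the C-type genes had a median level of 12.4 CPM per kb. The medians were 3.47 for gamma A, 2.36 for gamma B, 1.55 for beta and 1.34 CPM per kb for the alternate alpha genes. With all exon bases in the divisor, the medians were 6.38 for C-type, 1.90 for gamma A, 1.55 for beta, 1.30 for gamma B and 0.560 CPM per kb for alternate alpha genes, so the order of beta and gamma B depends on how shared exons are treated.

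Pcdhgc3, which promotes dendrite branching in mouse cortical neurons and binds the Wnt pathway protein Axin1, had the highest level per kb, 24.5 ± 1.29 CPM per kb (SD, n = 12 libraries), with a range of 23.0 to 27.1. Pcdhgc5, whose expression in mouse brain begins late after birth and which binds a subunit of the GABA-A receptor in rat neurons, followed at 20.4 ± 0.981 CPM per kb (SD, n = 12) and a range of 19.2 to 22.2. Pcdhac2, which serotonergic axons of the mouse need to spread evenly, came next at 12.4 ± 0.688 CPM per kb (SD, n = 12) and a range of 11.3 to 13.5. The ranges of these 3 genes did not overlap with each other or with that of Pcdhga11, the highest alternate gene, at 8.81 to 10.4 CPM per kb.

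Pcdhgc4, which keeps neurons from dying during mouse development, reached 4.77 ± 0.247 CPM per kb (SD, n = 12). Its range of 4.37 to 5.15 overlapped with those of Pcdhga3, at 5.05 to 6.74, and Pcdhgb6, at 4.11 to 5.16, so these neighbours in the order were not separate. Pcdhac1, the other alpha C-type gene, ranked 48 of 56 at 0.894 ± 0.0888 CPM per kb (SD, n = 12). The C-type genes thus spanned a 27.4-fold range of levels per kb, about as wide as the 26.0-fold range of the alternate alpha genes and wider than the 4.70-fold range of gamma A.

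In CPM without correction for length, Pcdhgc5, Pcdhgc3 and Pcdhac2 held the top 3 places, in this order, in each of the 12 libraries. They held 15.7%, 13.8% and 6.26% of the CPM of all 56 genes. Within the alpha cluster Pcdhac2 alone took 46.8 to 49.8% of the CPM per library, and Pcdhac1 took 2.42 to 3.37%. Within the gamma cluster Pcdhgc5 took 23.9 to 27.0%, Pcdhgc3 21.2 to 23.5% and Pcdhgc4 4.13 to 4.81%.

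**Figure D2:**
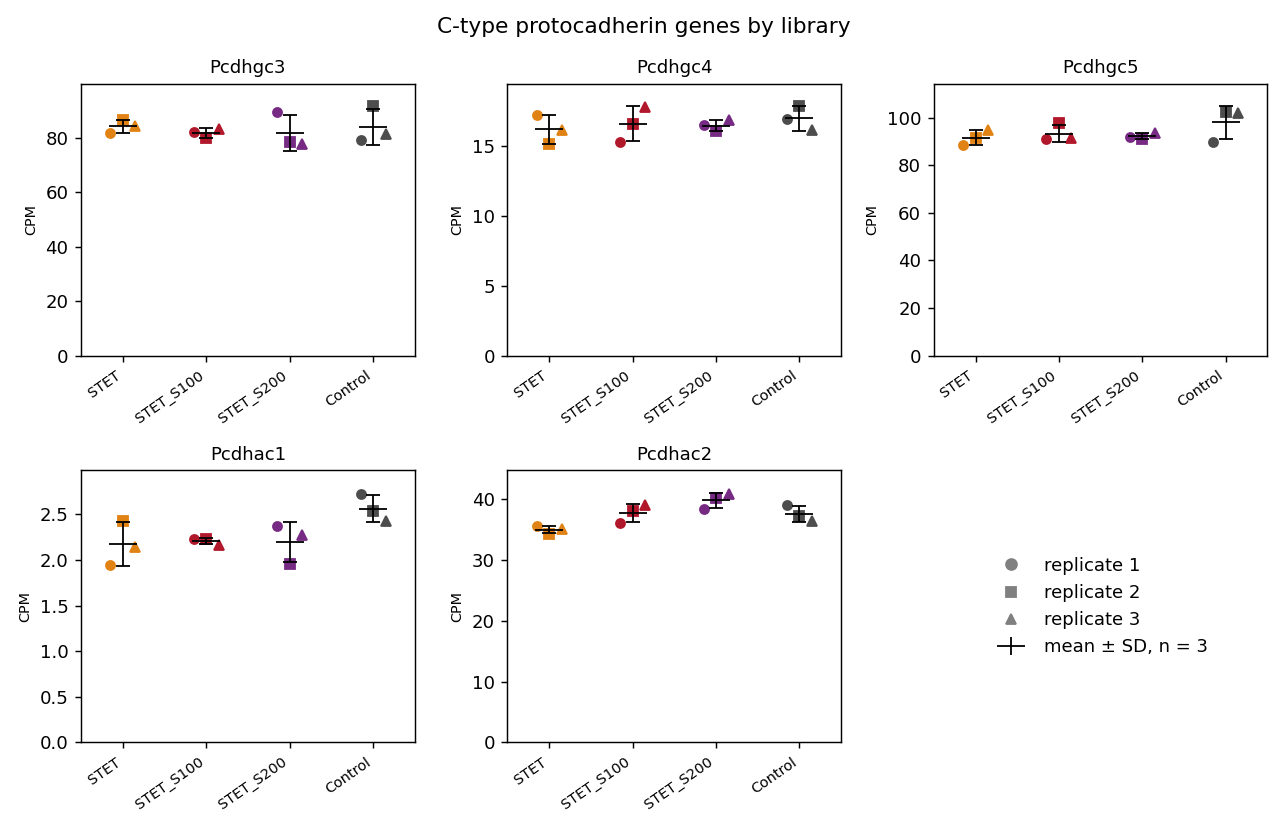
CPM of the 5 C-type genes in each library, by group. Points are libraries, and black bars are the mean ± SD of 3. Pcdhgc5 lies between 88.5 and 102 CPM and Pcdhgc3 between 77.7 and 91.6 CPM. Pcdhac1 stays between 1.95 and 2.72 CPM and is highest in the 3 Control libraries, by a narrow margin (2.433 CPM in Control 3, 2.427 in STET 2).

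Among alternate genes of the gamma cluster, Pcdhga11 led with a mean of 24.7 CPM, followed by Pcdhga3 with 15.03 and Pcdhga12 with 13.4 CPM. The leading beta genes were Pcdhb22 with 13.4, Pcdhb17 with 12.7 and Pcdhb9 with 12.3 CPM. Per kb, Pcdhb9 was the highest beta gene at 4.02 and Pcdhb8 the lowest at 0.687 CPM per kb, a 5.85-fold range. The leading alternate alpha genes were Pcdha12 with 7.51, Pcdha9 with 5.60 and Pcdha5 with 4.71 CPM. All of these encode recognition proteins of the same build, and no separate role is given for them here.

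The lowest level belonged to Pcdha8, at 0.117 CPM per kb and 5 to 20 counts per library. The second lowest was Pcdhgb8, annotated as a polymorphic pseudogene, at 0.349 CPM per kb and 23 to 47 counts per library. Some first exons are alike: stretches of 100 bases that also occur in another gene were found in all 11 alternate alpha genes, where they made up to 11.7% of the stretches, and in 6 of 7 gamma B genes, at up to 9.80%. They were found in 11 of 21 beta genes, at up to 2.24%, in 2 of 12 gamma A genes, at up to 1.54%, and in none of the C-type genes. Reads from such stretches may be split or lost, which adds to the uncertainty of alternate alpha levels. The symbol Pcdha11 stands for 2 IDs, ENSMUSG00000007440 with 0.917 and ENSMUSG00000102206 with 0.529 CPM per kb, and RefSeq names the first of these Pcdha10. Without the divisor their order is reversed, at 2.29 CPM for the first and 2.44 CPM for the second. The first has 2499 annotated unshared bases and the second 4606, so their order depends on the annotated length.

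Position in a cluster and level were only loosely related. Across genes, the Spearman correlation of the order along the locus with the level per kb was 0.11 for alternate alpha (n = 11), 0.38 for beta (n = 21), 0.13 for gamma A (n = 12) and -0.46 for gamma B (n = 7). These are descriptions over genes of the same 12 libraries, not over independent replicates.

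The order of the 56 genes by CPM was nearly the same from library to library. Spearman's correlation between 2 libraries ran from 0.968 to 0.988 over the 66 pairs, as a description across genes. The highest library was less than 1.5 times the lowest for 45 genes and 1.5 to 2 times for 10. It exceeded 2 times only for Pcdha8, at 4.13-fold, the gene with the fewest counts. The narrowest ranges were those of Pcdhb20, at 1.13-fold, and Pcdhb18, also at 1.13-fold. The coefficient of variation within groups had a median of 8.36% for the 49 members with 100 to 1000 counts and of 8.65% for the 5810 other genes in that range. Counting error alone gave medians of 5.76% and 5.10% for these sets.

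The comparison of stimulated with Control slices asks whether the output of each cluster differed 30 min after stimulation. Summed over the 5 C-type genes, the level was 225, 230 and 233 CPM in STET, 227, 234 and 234 in STET_S100, 239, 228 and 232 in STET_S200, and 228, 252 and 238 CPM in Control. The Control library 2 was highest, and all groups overlapped. That library also had the highest sum of the CA1 marker list, 6134 CPM, through Camk2a, at 3980 CPM. Other genes of the list were not highest there. Slc17a7 had 1258 CPM in Control 2 and 1321 in Control 3, and Fibcd1 343 and 396 CPM. The mean of the stimulated groups over Control was -0.05 on the log2 scale, and -0.01 without Control replicate 2. The part of CA1 content in these sums was not tested.

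The 21 beta genes summed to 156, 148 and 152 CPM in STET, 151, 149 and 149 in STET_S100, 149, 149 and 152 in STET_S200, and 153, 159 and 148 CPM in Control. Control held both the highest and the lowest beta sum. The 12 gamma A genes averaged 129 ± 0.757 CPM in STET, 130 ± 8.66 in STET_S100, 132 ± 2.32 in STET_S200 and 133 ± 3.58 CPM in Control (SD, n = 3 each). The 7 gamma B genes averaged 44.9 ± 1.03 in STET, 45.7 ± 3.31 in STET_S100, 46.8 ± 3.60 in STET_S200 and 45.8 ± 0.694 CPM in Control. The 11 alternate alpha genes averaged 36.8 ± 1.59 in STET, 38.7 ± 1.17 in STET_S100, 40.3 ± 1.58 in STET_S200 and 38.3 ± 2.08 CPM in Control. Each of these sets overlapped between each stimulated group and Control.

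Over the 5 sets and the 3 stimulated groups, the log2 ratio of sums to Control ran from -0.06 for C-type in STET to 0.07 for alternate alpha in STET_S200. The whole alpha cluster, C-type genes included, stood at -0.08 in STET and 0.07 in STET_S200. The C-type share overlapped between all groups. These genes made 38.7 ± 0.584% of the CPM of all 56 genes in STET, 38.9 ± 0.700% in STET_S100, 38.7 ± 0.282% in STET_S200 and 39.2 ± 0.885% in Control (SD, n = 3 each). The 5 libraries with Fabp4 above 1 CPM had C-type sums of 227 to 238 CPM, within the 225 to 252 CPM of the 7 others, and beta sums of 148 to 152 CPM, within or at the edge of 148 to 159 CPM.

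**Figure D3:**
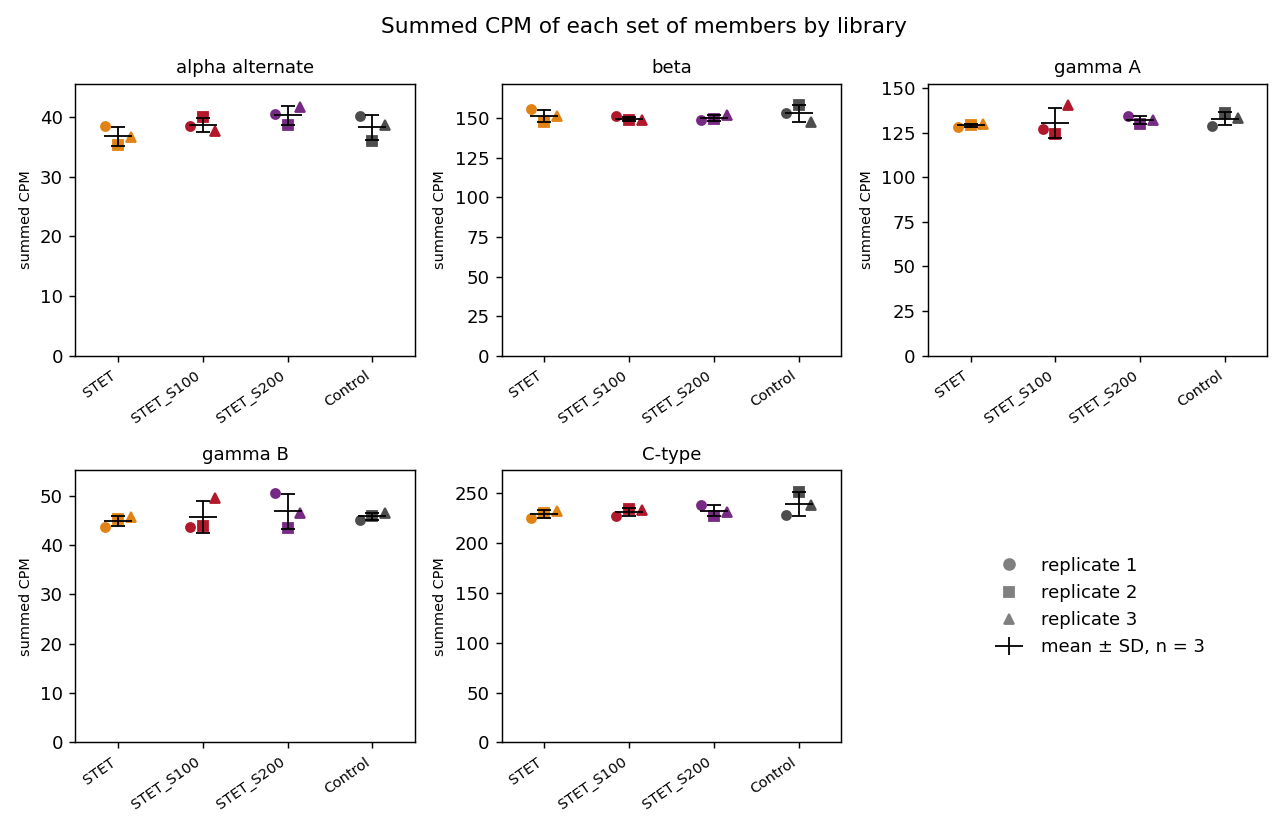
Summed CPM of the alternate alpha, beta, gamma A, gamma B and C-type genes in each library, by group. Points are libraries and black bars the mean ± SD of 3. In each set the points of every stimulated group overlap with those of Control, and the highest C-type sum, 252 CPM, is in a Control library.

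Gene by gene, no difference passed the threshold. With the quasi-likelihood test of edgeR fitted to 19492 genes and Benjamini-Hochberg adjustment over all of them, 0 of 56 members had an adjusted p under 0.05 in any of the 7 comparisons, where the background was 0% of all genes in each. DESeq2 and limma-voom also called 0 members in each comparison. Unadjusted p-values under 0.05 were found for 3 members in STET against Control (background 3.5% of all genes), 2 in STET_S100 against Control (5.16%) and 3 in STET_S200 against Control (5.92%). The mean contrast, all stimulated groups averaged with equal weight and set against Control, had 5 such members (5.47%). The first 3 counts correspond to 5.36%, 3.57% and 5.36% of the 56 genes, close to the background. For the mean contrast the share was 8.93%, and these comparisons share the Control libraries, so their counts are not independent. All 5 in the mean contrast were lower than Control, as were all 3 in STET and all 3 in STET_S200. STET_S100 had 1 higher and 1 lower. Over all genes, 384 were higher and 299 lower in STET, 573 and 581 in STET_S200, and 504 and 562 in the mean contrast.

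The intervals show how much could have gone unseen. The 95% confidence interval of the log2 fold change lay within 1.5-fold in either direction for 55 of 56 members in STET against Control, 53 in STET_S100, 53 in STET_S200 and 55 in the mean contrast. Pcdha8 had the widest interval in each of these comparisons. The median log2 fold change over the 56 genes was -0.01 in STET, -0.02 in STET_S100, 0.00 in STET_S200 and -0.01 in the mean contrast, against 0.00 over all genes tested in each of them. Above 0 were 23 members in STET (41.1%, background 49.9%), 21 in STET_S100 (37.5%, background 50.8%), 29 in STET_S200 (51.8%, background 50.6%) and 21 in the mean contrast (37.5%, background 50%).

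**Figure D4:**
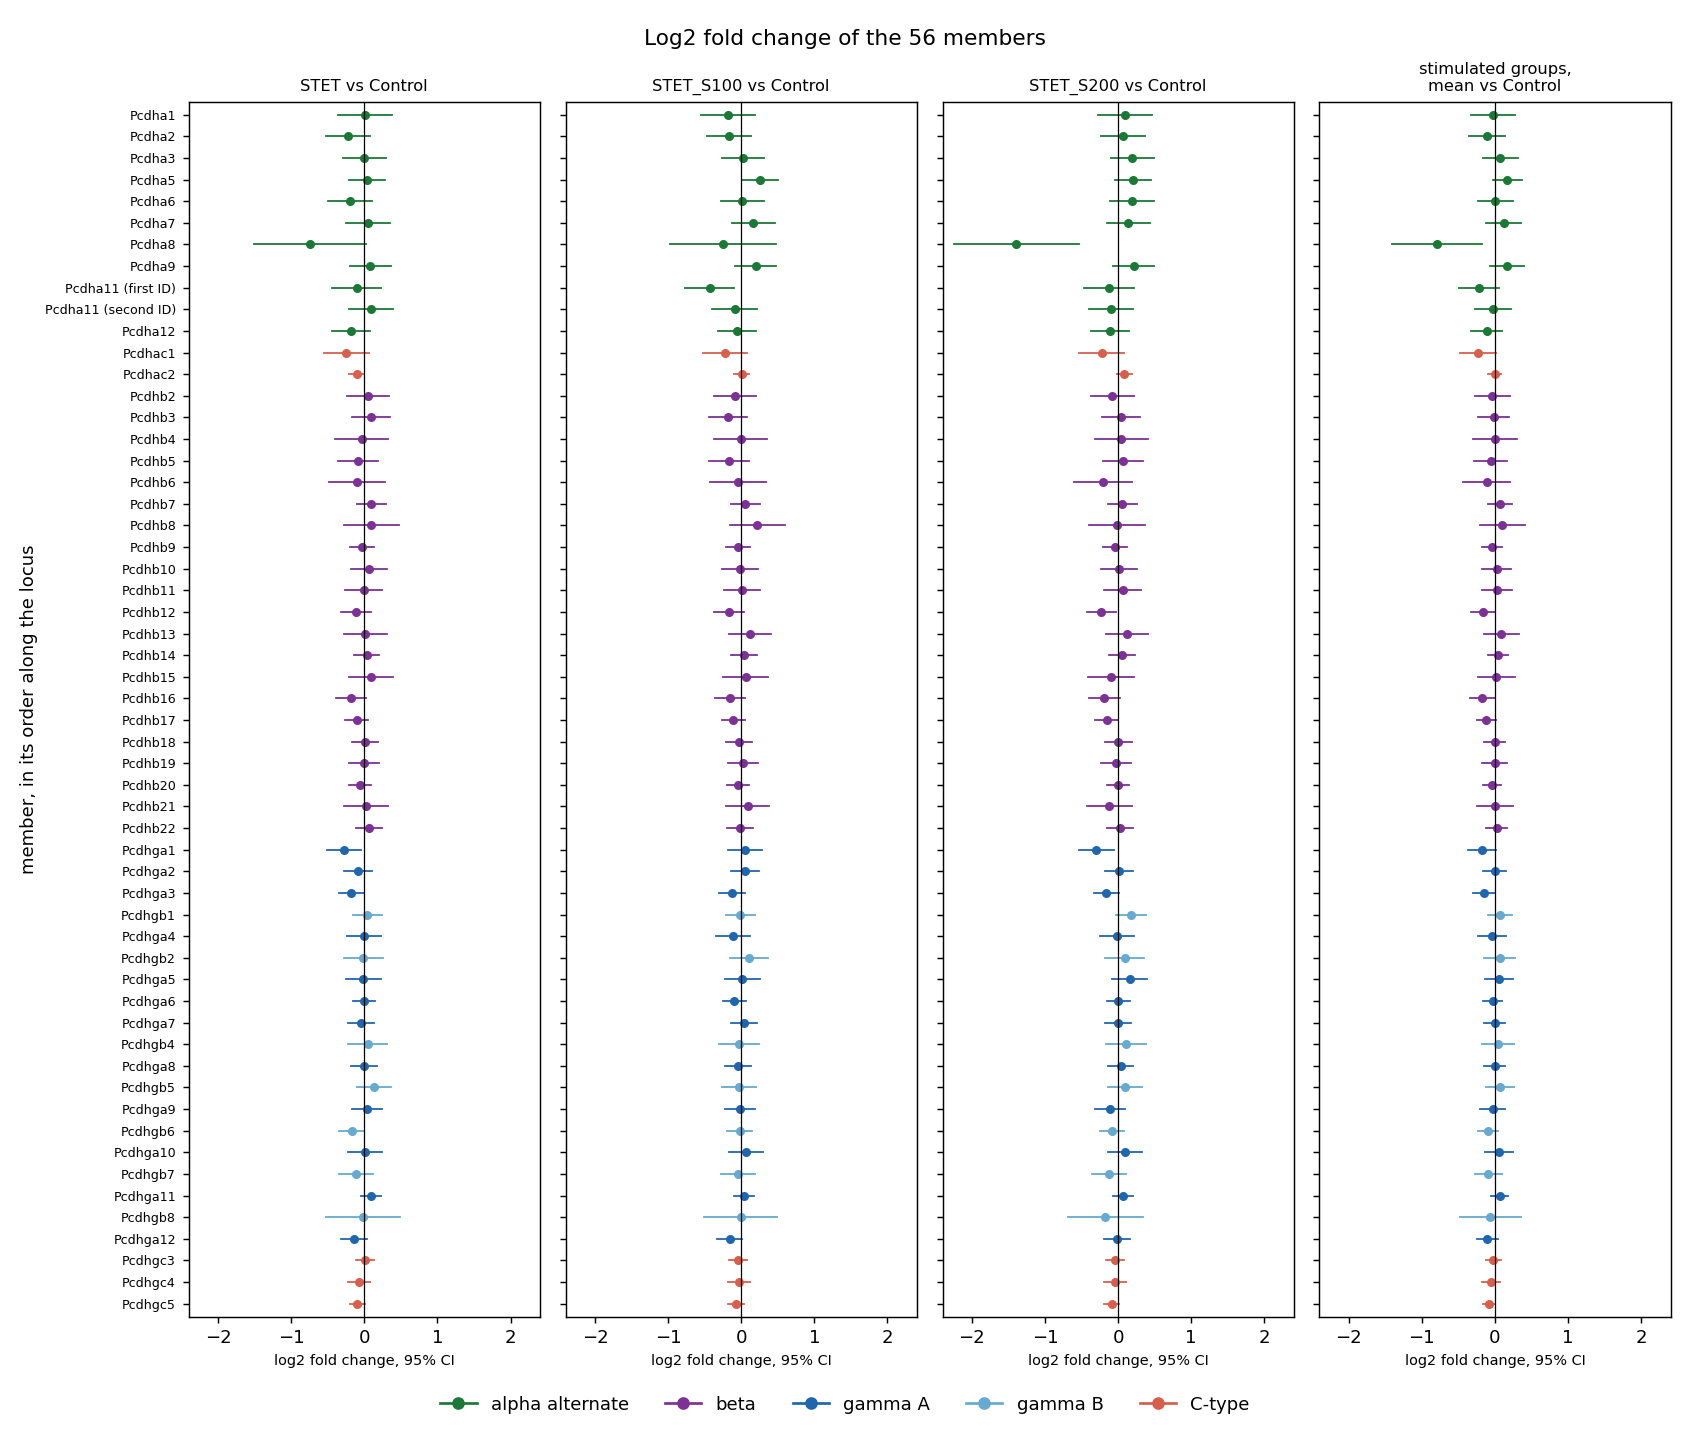
Log2 fold change against Control of the 56 genes in their order along the locus, for each stimulated group and for the mean of the 3. Points are estimates and bars 95% confidence intervals from the fit, coloured by set. Nearly all points lie close to 0, and the interval of Pcdha8 is the widest, from -2.24 to -0.54 in STET_S200.

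Of the C-type genes, Pcdhac2 had 35.6, 34.4 and 35.1 CPM in STET, 36.2, 38.0 and 39.2 in STET_S100, 38.5, 40.2 and 40.9 in STET_S200, and 39.1, 37.3 and 36.4 CPM in Control. The 3 STET libraries were the lowest of the 12, and none of them overlapped with another group. Against Control the log2 fold change was -0.10 ± 0.05 in STET (SE, unadjusted p = 0.0506 and adjusted p = 0.999946 by edgeR), 0.01 ± 0.05 in STET_S100 and 0.08 ± 0.05 in STET_S200.

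For Pcdhac1 the values were 1.95, 2.43 and 2.15 CPM in STET, 2.23, 2.23 and 2.17 in STET_S100, 2.38, 1.95 and 2.27 in STET_S200, and 2.72, 2.54 and 2.43 CPM in Control. All 9 stimulated libraries were below all 3 Control libraries, the single member of 56 for which this held, while none was above them. Over all genes, 0.441% were below in this way and 0.549% above. The margin for Pcdhac1 was narrow, with 2.427 CPM in STET 2 and 2.433 CPM in Control 3. The log2 fold change of the mean contrast was -0.23 ± 0.12 (SE, unadjusted p = 0.0674, adjusted p = 0.936 by edgeR), and the gene had a mean of 101 counts.

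Pcdhgc5 had 88.5, 91.7 and 94.8 CPM in STET, 91.2, 97.6 and 91.3 in STET_S100, 91.8, 91.2 and 93.8 in STET_S200, and 90.1, 102 and 102 CPM in Control. Control library 1 lay among the stimulated libraries, and the other 2 Control libraries were above them all. The mean contrast gave -0.08 ± 0.04 on the log2 scale (SE, unadjusted p = 0.0495, adjusted p = 0.913 by edgeR). The value was -0.14 without Control replicate 1 and -0.05 without Control replicate 2.

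Pcdhgc3 had 81.8, 86.4 and 84.3 CPM in STET, 82.0, 79.8 and 83.2 in STET_S100, 89.4, 78.3 and 77.7 in STET_S200, and 79.1, 91.6 and 81.1 CPM in Control, with all groups overlapping. Its log2 fold change in the mean contrast was -0.02 ± 0.05, with a 95% interval of -0.12 to 0.08. Pcdhgc4 averaged 16.2 CPM in STET, 16.6 in STET_S100, 16.5 in STET_S200 and 17.0 CPM in Control, with a log2 fold change of -0.05 ± 0.06 and a 95% interval of -0.17 to 0.07. Without Control replicate 2 the Pcdhgc4 value was -0.01. All 5 C-type genes were below 0 in the mean contrast, with Pcdhac2 at -0.0049 and up to 0.026 when a single library was left out, the highest without Control replicate 1, and Pcdhgc3 at 0.04 without Control replicate 2.

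In STET against Control, the 3 members with the smallest p-values were all gamma alternates. Pcdhga1, the first gene of the gamma cluster, had 6.29, 5.197 and 5.90 CPM in STET and 7.03, 6.93 and 7.13 CPM in Control, with no overlap. Its log2 fold change was -0.28 ± 0.11 (SE, unadjusted p = 0.024, adjusted p = 0.999946 by edgeR). Pcdhga3 had 14.8, 15.2 and 13.1 CPM in STET against 15.5, 15.8 and 17.5 CPM in Control, a log2 fold change of -0.18 ± 0.08, which was -0.12 without STET replicate 3 and -0.06 when the libraries with Fabp4 above 1 CPM were left out. Pcdhgb6 had 10.9, 10.6 and 11.1 CPM in STET against 12.2, 11.8 and 12.6 CPM in Control, a log2 fold change of -0.17 ± 0.08. In all, 0 members were above all Control libraries (background 4.69%) and 8 were below them (background 4.2%). The 8 were Pcdha6, Pcdha8, Pcdhac1, Pcdhac2, Pcdhga1, Pcdhga3, Pcdhgb6 and Pcdhga12, of which Pcdha6 was singled out after its values were seen. No beta gene was among them.

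In STET_S100 against Control, the Pcdha11 entry ENSMUSG00000007440 had 1.71, 1.75 and 2.21 CPM in STET_S100 and 2.53, 2.46 and 2.68 CPM in Control. The groups did not overlap, and the log2 fold change was -0.43 ± 0.16 (SE, unadjusted p = 0.0157, adjusted p = 0.902 by edgeR). Pcdha5 had 5.32, 5.58 and 4.55 CPM in STET_S100 against 4.06, 4.26 and 4.59 CPM in Control, which overlapped, with a log2 fold change of 0.26 ± 0.12. Pcdhga12 had 12.6, 11.4 and 13.8 CPM in STET_S100 against 14.2, 13.9 and 14.2 CPM in Control, with a log2 fold change of -0.16 ± 0.08, and -0.09 without STET_S100 replicate 2. Only 1 member lay above all Control libraries (background 5.19%) and 6 below them (background 4.93%).

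In STET_S200 against Control, Pcdha8 had the smallest p-value. It had 0.119, 0.155 and 0.191 CPM in STET_S200 and 0.359, 0.491 and 0.383 CPM in Control, from 5, 7 and 7 counts in STET_S200 against 19, 18 and 14 counts in Control. The log2 fold change was -1.39 ± 0.40 (SE, unadjusted p = 0.00246, adjusted p = 0.786 by edgeR). In the other groups Pcdha8 had 0.258, 0.252 and 0.217 CPM in STET, below all Control libraries, and 0.219, 0.407 and 0.413 CPM in STET_S100, which overlapped with Control.

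Pcdhga1 had 6.28, 4.84 and 6.10 CPM in STET_S200, below the 3 Control libraries, with a log2 fold change of -0.30 ± 0.11 (SE, unadjusted p = 0.0179, adjusted p = 0.817 by edgeR). In the 7 libraries with Fabp4 at or below 1 CPM, which hold a single STET_S200 library, the value was -0.15, and without STET_S200 replicate 2 it was -0.18. Pcdhb12, a beta gene from the middle of its cluster, had 8.04, 7.59 and 7.79 CPM in STET_S200 against 10.04, 9.17 and 8.17 CPM in Control, a log2 fold change of -0.23 ± 0.10, and -0.15 without Control replicate 1. Altogether 2 members lay above all Control libraries (background 5.73%) and 5 below them (background 5.28%). The 2 above were the alpha alternates Pcdha5, at 0.21 ± 0.12 on the log2 scale, and Pcdha3, at 0.20, which was singled out after its values were seen.

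**Figure D5:**
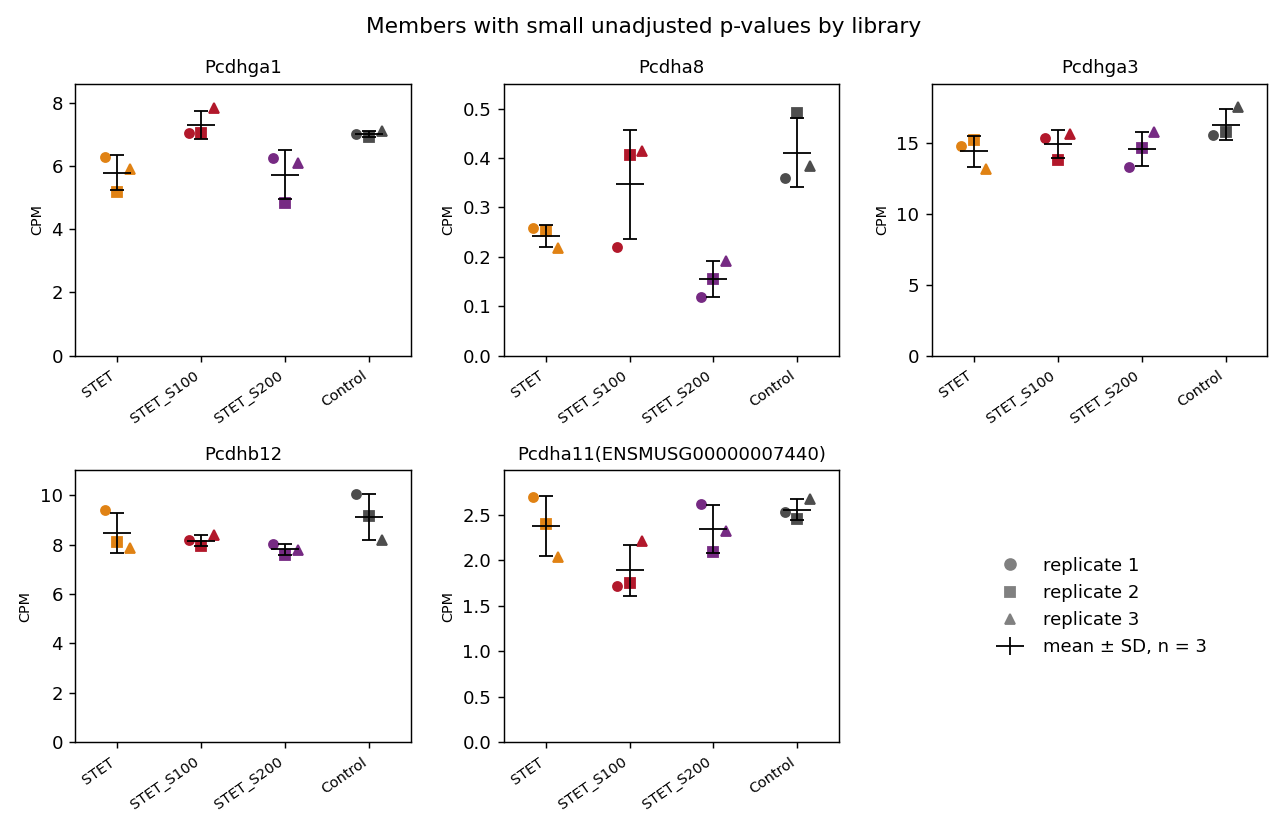
CPM in each library of 5 members, among them the Pcdha11 entry ENSMUSG00000007440, with small unadjusted p-values in a comparison with Control, by group. Points are libraries and black bars the mean ± SD of 3. Pcdhga1 is at or below 6.29 CPM in STET and STET_S200 and between 6.93 and 7.83 CPM in STET_S100 and Control.

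In the mean contrast, the smallest p-values belonged to Pcdha8, Pcdhga3 and Pcdhb16. Their log2 fold changes were -0.79 ± 0.29 for Pcdha8, -0.15 ± 0.07 for Pcdhga3 and -0.17 ± 0.08 for Pcdhb16 (SE, smallest adjusted p = 0.845 by edgeR). Pcdhb16 had 8.04, 9.25 and 8.48 CPM in STET, 8.91, 8.50 and 8.76 in STET_S100, 9.13, 7.88 and 8.64 in STET_S200, and 9.15, 11.2 and 8.91 CPM in Control. Stimulated and Control libraries overlapped for all 3 genes, and leaving out a library moved 2 of the values by more than 1.5 times. Pcdhb16 was at -0.07 without Control replicate 2, and Pcdhga3 at -0.10 without Control replicate 3.

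The pairs of stimulated groups address whether amygdala stimulation added to tetanization, or its rate, went with different levels. Again 0 members passed in each of the 3 pairs by edgeR, DESeq2 or limma-voom, with unadjusted p-values under 0.05 for 3 members in STET_S100 against STET (background 3.16%), 2 in STET_S200 against STET (4.56%) and 2 in STET_S200 against STET_S100 (5.2%). For Pcdhac2, STET_S200 against STET gave a log2 fold change of 0.19 ± 0.05 (SE, unadjusted p = 0.00146, adjusted p = 0.938 by edgeR), the smallest unadjusted p of any member in any comparison. The 3 STET_S200 libraries, at 38.5 to 40.9 CPM, were all above the STET libraries, at 34.4 to 35.6 CPM. STET_S100 against STET gave 0.11 ± 0.05. The choroid plexus markers also differed between these groups, from 6.86 to 51.4 CPM in STET_S200 and from 279 to 2425 CPM in STET, and their part in the difference was not tested.

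The summed level of the 13 genes of the alpha cluster, Pcdhac1 and Pcdhac2 included, was also separate between the stimulated groups. It was 76.0, 72.1 and 73.8 CPM in STET, 76.8, 80.2 and 79.0 in STET_S100, 81.4, 80.7 and 85.0 in STET_S200, and 82.0, 75.8 and 77.5 CPM in Control. The STET libraries were below all STET_S100 libraries and these below all STET_S200 libraries, though by less than 1 CPM at the nearest points, while Control overlapped with each stimulated group. As a share of all 56 genes, the alpha cluster made 12.26 to 12.85% in STET, 12.94 to 13.57% in STET_S100, 13.3 to 14.1% in STET_S200 and 12.1 to 13.8% in Control. Pcdhac2 makes 46.8 to 49.8% of this sum, so the sum is not independent of that gene. The 11 alternate alpha genes alone summed to 38.6 to 41.7 CPM in STET_S200 and 35.3 to 38.5 CPM in STET, which did not overlap, while STET_S100, at 37.7 to 40.0 CPM, overlapped with both. As a share, they made 6.56 to 6.91% in STET_S200 and 6.00 to 6.51% in STET. The gamma A sums did not overlap either between STET, at 128.2 to 129.6 CPM, and STET_S200, at 129.7 to 134.3 CPM. As a share of all 56 genes, gamma A overlapped, at 21.7 to 22.0% in STET and 21.8 to 22.0% in STET_S200. These separations between stimulated groups were singled out after the values were seen. No test was run on these sums.

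Pcdhga1 was the member with the smallest p in both comparisons that involve STET_S100 and another stimulated group. It had 7.06, 7.06 and 7.83 CPM in STET_S100, all above the 5.197 to 6.29 CPM of STET and the 4.84 to 6.28 CPM of STET_S200. The log2 fold change was 0.33 ± 0.11 for STET_S100 against STET (SE, unadjusted p = 0.00783, adjusted p = 0.999943 by edgeR) and -0.35 ± 0.11 for STET_S200 against STET_S100 (unadjusted p = 0.00583, adjusted p = 0.956 by edgeR). The number of members without overlap was 3 above and 1 below for STET_S100 against STET (backgrounds 4.73% and 4.87%), 5 above and 2 below for STET_S200 against STET (6.22% and 5.76%) and 2 above and 2 below for STET_S200 against STET_S100 (4.57% and 4.77%). Above 0 were 32 members in STET_S100 against STET (background 51.9%), 30 in STET_S200 against STET (51%) and 29 in STET_S200 against STET_S100 (50.7%). The alpha cluster, with 13 genes, held 4 of the 5 above and both below in STET_S200 against STET. In STET_S100 against STET it held 1 of the 3 above and the 1 below. In STET_S200 against STET_S100 it held both above and 1 of the 2 below. These counts for the alpha cluster were singled out after the values were seen and were not tested.

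The genes that act on the clusters or with their proteins were described from lists, and 0 of their members passed the threshold in any of the 7 comparisons by edgeR. Of the 11 genes for CTCF and cohesin, which loop the cluster promoters to their enhancers, 7 were above 0 in the mean contrast, with a median of 0.02 on the log2 scale, against 0.00 over all genes. Ctcf itself, singled out after its values were seen, had 66.2, 65.6 and 67.7 CPM in STET, 66.5, 68.8 and 68.5 in STET_S100, 67.5, 66.2 and 68.4 in STET_S200, and 64.5, 64.9 and 64.9 CPM in Control. All 9 stimulated libraries were above the 3 Control libraries, which held for 0.549% of all genes tested. The nearest values were 65.6 CPM in STET and 64.9 CPM in Control. The log2 fold change of Ctcf in the mean contrast was 0.05 ± 0.03 (SE, unadjusted p = 0.0883, adjusted p = 0.936 by edgeR). The members with the highest levels, the cohesin regulator Pds5b, the cohesin subunits Rad21 and Smc1a and the loader subunit Mau2, had log2 fold changes of -0.02, 0.00, -0.02 and -0.05 in the mean contrast.

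The 8 genes of promoter methylation and silencing, among them the DNA methyltransferases Dnmt3a and Dnmt1, had a median of -0.02 in the mean contrast, with 3 above 0. The 7 genes of proteolytic processing, which include the protease Adam10 and the gamma-secretase subunit Ncstn, which act in the release of parts of protocadherins, had a median of -0.01, with 1 above 0. The 14 cytoplasmic partners, among them the WAVE complex subunits Cyfip2, Nckap1 and Wasf1 and the kinase Ptk2b, had a median of -0.01, with 6 above 0. The groups differed in this list. Against Control, 4 were above 0 in STET, 6 in STET_S100 and 10 in STET_S200, 3 of the last with an unadjusted p under 0.05 by edgeR. In STET_S200, 13 were above 0 against STET (background 51%) and 13 against STET_S100 (background 50.7%). The medians there were 0.04 and 0.05. The 13 classical cadherins and catenins had a median of -0.02, with 5 above 0, and beta-catenin (Ctnnb1) stood at 0.00.

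The 12 non-clustered protocadherins, each encoded by a gene of its own, had a summed level of 1281 to 1402 CPM, against 587 to 628 CPM for the 56 clustered genes. Their median log2 fold change in the mean contrast was 0.01, with 7 of 12 above 0. Pcdh1, the highest of them, averaged 354 ± 2.39 CPM in STET, 359 ± 8.35 in STET_S100, 373 ± 4.21 in STET_S200 and 356 ± 17.0 CPM in Control (SD, n = 3 each). Pcdh8, known as arcadlin and induced by neuronal activity in rat hippocampus, had 134, 163 and 155 CPM in STET, 140, 169 and 161 in STET_S100, 182, 151 and 104 in STET_S200, and 160, 149 and 99.1 CPM in Control. The groups overlapped, and the mean contrast gave 0.15 ± 0.19 on the log2 scale (SE, adjusted p = 0.977 by edgeR). The libraries lowest in Pcdh8, STET_S200 3 and Control 3, were also lowest in Prox1, a marker of dentate granule cells, at 16.5 CPM in STET_S200 3 and 19.02 CPM in Control 3, against 34.6 to 61.4 CPM in the other libraries. The 3 dentate granule markers together ranged from 23.0 to 102.8 CPM, and their part in the Pcdh8 values was not tested.

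The 6 immediate early genes of the list, which neurons switch on within minutes of activity, were also short of the threshold by edgeR. They were all above 0, and 5 of 6 had an unadjusted p under 0.05 in the mean contrast, with a median log2 fold change of 0.60. Arc, which regulates glutamate receptor uptake at synapses, averaged 252 CPM in the stimulated groups and 96.7 CPM in Control, 1.38 ± 0.27 on the log2 scale (SE, unadjusted p = 0.0014, adjusted p = 0.845 by edgeR), whereas the summed C-type level in the same libraries stood at -0.05. Microglia markers stood at a median of -0.16, with 3 of 5 below 0 at an unadjusted p under 0.05 by edgeR, against 562 of 19492 genes tested. Astrocyte markers stood at -0.05, oligodendrocyte markers at 0.00 and choroid plexus markers at -0.89, with none at such a p. Endothelial markers stood at 0.10 and interneuron markers at 0.02, each list with 1 gene above 0 at such a p. The part of these cell types in the values of the 56 genes was not tested.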

How the data were processed

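Poly(A) RNA of 12 libraries was sequenced as directional libraries, with read pairs of 150 bp according to the labels' protocols. The deposited values are raw read counts per Ensembl gene ID, made by the authors. The submitters' processing notes name limma, R 4.0.2, HTSeq 0.11.2, STAR 2.7.1a and Trimmomatic 0.39. Genome build, annotation release and counting settings were not given in the sources used here. No coordinates are printed, and exon overlap was computed from GENCODE M21.

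Counts were scaled by TMM (CPM use the scaled total) and tested with edgeR 4.0.16 (quasi-likelihood F test, robust dispersion, R 4.3.3) in 1 fit of 12 libraries with 1 coefficient per group. The filterByExpr filter, at 10 counts and a total of 15, kept 19492 genes, all 56 members included. P-values were adjusted over all of them within each comparison by the Benjamini-Hochberg method. The biological coefficient of variation was 8.25%. Standard errors and 95% intervals come from the fit. Total counts of 36.3 to 52.8 M set the counting precision, and reads are not independent molecules. The test was tried on simulated data.

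Named genes were the C-type genes, the 3 members with the highest mean CPM in each cluster, those with the 3 smallest p-values in each comparison with Control, those next to the count minimum, Pcdh8, and up to 4 leading genes of a list. Pcdhb8, Pcdhb18, Pcdhb20, Pcdhgb8, Pcdhga10 and members listed for non-overlap were named after their values were seen. The members and lists were chosen with earlier results of these data known. Alternatives were RLE and upper quartile scaling, other filters, DESeq2 1.42.0, limma-voom (limma 3.58.1), fits without robust dispersion or of the compared groups alone, a replicate block, a threshold of 0.1, leaving out each library, and a term for, or omission of, the libraries with Fabp4 above 1 CPM. Stretches of 100 bases were matched among GENCODE M21 transcripts, and no sequence of a member is printed.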

Additional observations from a re-analysis of the deposited data

How the results depend on the processing

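The number of members called stayed at 0 in all 7 comparisons under every alternative that was run, with a smallest adjusted p of 0.33 (without a filter, STET_S200 against STET_S100), and it was 0 to 0 when each library was left out in turn. A minimum mean count of 1 gave 57 members and one of 100 gave 53. With all exon bases in the divisor, the median level per kb was 0.560 CPM for alternate alpha, 1.90 for gamma A, 1.30 for gamma B and 6.38 for C-type genes, by the construction of that divisor. Shared exons limit the comparison of levels between clusters, and counts of 5 to 20 limit Pcdha8.

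Of 376 log2 fold changes recomputed under other settings, 2 changed sign, both in the 7 libraries with Fabp4 at or below 1 CPM, where STET_S200 is a single library assumed to vary like the others. They were Pcdhga1 in STET_S200 against STET, at 0.12, and Pcdhac2 in STET_S200 against STET_S100, at -0.0056. The cause was not tested. Of 432 values with a library left out, 9 changed sign, in 5 results near 0. Their ranges were -0.028 to 0.026 for Pcdhac2, -0.0071 to 0.044 for Pcdhb22, -0.075 to 0.016 for Pcdhb9 and -0.065 to 0.043 for Pcdhgc3 in the mean contrast, and -0.090 to 0.094 for Pcdhga1 in STET_S200 against STET. With a library left out, sums of stimulated groups over Control ranged on the log2 scale from -0.05 to -0.01 for all members, -0.03 to 0.05 for alternate alpha, -0.05 to 0.00 for beta, -0.05 to -0.01 for gamma A, -0.02 to 0.02 for gamma B and -0.08 to -0.01 for C-type genes.

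The replicate number as a block also called 0 members in each comparison. Libraries of different groups with the same number had correlations of -0.29 to 0.33 between their deviations from the group means. Their median was 0.05, and 7 of 18 were above 0.1. For libraries with different numbers the range was -0.35 to 0.36 and the median -0.04, with 10 of 36 above 0.1. These overlapping ranges do not settle whether equal numbers mark the same mice. As the labels do not say so, the numbers were not taken as pairs in the main fit. The fit of the compared groups alone was not run for the mean contrast, which uses all groups.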
